A study of Homo sapiens with 20 samples.

Results

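CD24, ALOX5, EYA4 and HDAC9 are 4 of the 55159 genes counted in this study of HEL cells, a human erythroleukaemia line that carries a mutant JAK2 kinase. They were chosen for near on-off differences between cells that persist under a JAK2 inhibitor and their parental cells, so their values in that contrast are given as a description, with no test. RNA was sequenced in 20 libraries of 10 groups of 2, deposited as 3 tables of gene counts. In 1 table HEL cells were cultured for 4 h or 48 h with DMSO, the solvent, or with 1 µM BCI, which blocks the dual-specificity phosphatases DUSP1 and DUSP6. In another, they were cultured for 24 h with DMSO, with 10 µM of the RSK kinase inhibitor BI-D1870, or with 10 µM BI-D1870 and 1 µM BCI together. The third held parental HEL cells with no treatment named, RuxP cells (ruxolitinib-persistent) and FedP cells (fedratinib-persistent), both made by long culture with the inhibitor. The sources used here do not give the drug concentration or length of that culture, whether drug was present at harvest, or whether a persistent line is 1 clone.

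CD24 is a small, heavily glycosylated protein held on the cell surface by a glycosylphosphatidylinositol (GPI) anchor. It is known as a ligand of the inhibitory receptor SIGLEC10 and of P-selectin, and marks immature B cells, granulocytes and some progenitors. ALOX5 is 5-lipoxygenase, the enzyme that starts leukotriene synthesis from arachidonic acid with the help of the membrane protein ALOX5AP, mainly in myeloid cells. EYA4 belongs to the eyes absent family, proteins that are both phosphatases and coactivators of homeodomain transcription factors. HDAC9 is a class IIa histone deacetylase that binds MEF2 transcription factors and represses their targets, and calcium/calmodulin-dependent and related kinases send such deacetylases out of the nucleus.

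In GRCh38 with the GENCODE 29 annotation, CD24 (ENSG00000272398) lies on the reverse strand at chr6:106969831-106975627. ALOX5 (ENSG00000012779) lies on the forward strand at chr10:45374176-45446119, EYA4 (ENSG00000112319) on the forward strand at chr6:133240598-133532120, and HDAC9 (ENSG00000048052) on the forward strand at chr7:18086949-19002416. RefSeq promoter sequences (GRCh38.p14) matched 3 of the 4 genes, and ALOX5 had no entry. The stretches below run from 100 bases before to 20 bases after a start site and are shown because EYA4 and HDAC9 lay opposite to CD24 in the persistent lines, the contrast on which the genes were chosen. Capitals mark a match to the MEF2 consensus, which reads the same on both strands.
CD24 start, chr6:106975608-106975727, reverse strand: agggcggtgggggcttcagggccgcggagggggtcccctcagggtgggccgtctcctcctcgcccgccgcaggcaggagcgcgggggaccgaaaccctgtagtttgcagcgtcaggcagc
EYA4 start, chr6:133241257-133241376, forward strand: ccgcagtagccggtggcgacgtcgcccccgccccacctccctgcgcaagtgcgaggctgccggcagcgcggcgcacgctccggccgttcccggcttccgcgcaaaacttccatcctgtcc
HDAC9 upstream start, chr7:18086725-18086844, forward strand: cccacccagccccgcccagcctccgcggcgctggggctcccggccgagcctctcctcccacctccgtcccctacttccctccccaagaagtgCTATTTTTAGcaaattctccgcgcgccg
HDAC9 internal start, chr7:18495649-18495768, forward strand: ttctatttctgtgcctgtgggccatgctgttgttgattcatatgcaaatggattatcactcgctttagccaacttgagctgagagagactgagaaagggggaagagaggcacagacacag
The upstream HDAC9 start held a MEF2 consensus match beginning 8 bases before the start, and 1050 of 35116 promoter windows of 300 bases (2.99%) held one. No match was found in the other 8 windows of CD24, EYA4 and HDAC9. On either strand, the STAT motif TTCNNNGAA, present in 7.66% of all windows, was in none of the 9 windows, and the GATA motif AGATAA, present in 10.3%, was in 1, at another internal start of HDAC9. These motifs do not overlap one another in those windows, were chosen after the sequences were seen, and a match is a description of letters only. GC content was 66.7% at the CD24 start, 71.7% at the EYA4 start and 75.0% at the upstream HDAC9 start, against 47.3% at the internal HDAC9 start. The counts are per gene, so which start was used in these cells is not seen in them.

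Libraries held 51799814 to 84452743 counts. All 15 erythroid and megakaryocyte markers chosen for HEL cells were at 1 CPM (counts scaled to library size and composition) or more in every library. Replicates correlated at 0.988 to 0.997 across genes in 8 groups, and at 0.962 in parental and 0.963 in RuxP cells. Whether replicates were separate cultures is not stated, so p-values measure the spread between these libraries only, which may be technical. In bulk RNA, fewer cells with a transcript and less of it per cell cannot be told apart. The 3 tables came from different flow cells and were scaled separately, so a level set across tables is a description.

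The parental libraries stood apart from the DMSO-treated HEL libraries for all 4 genes, and this bears on every persistent-parental value below. With all 20 libraries scaled together, the mean log2 CPM of CD24 was 5.32 higher in the 6 DMSO libraries than in parental cells, beside 5.13 higher in the mean of RuxP and FedP. For ALOX5 the same differences were 3.48 and 4.71, for EYA4 -5.54 and -5.51, and for HDAC9 -5.10 and -5.65. Thus the DMSO cells, which are not labelled as persistent, lay nearer to the persistent than to the parental level for each of the 4 genes. Of the 86 genes at least 16-fold different from parental in both persistent lines, 74 (86%) had a DMSO level nearer to the persistent one. Taking each line by itself, the share was 72.7% of 165 genes in RuxP and 85.3% of 184 in FedP. This comparison was added after seeing the data. The same 2 parental libraries serve every gene, and the genes were picked by their distance from them. DMSO and parental libraries come from different tables, and may differ in sequencing run and counting, as well as in treatment, and these cannot be told apart.

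**Figure D1:**
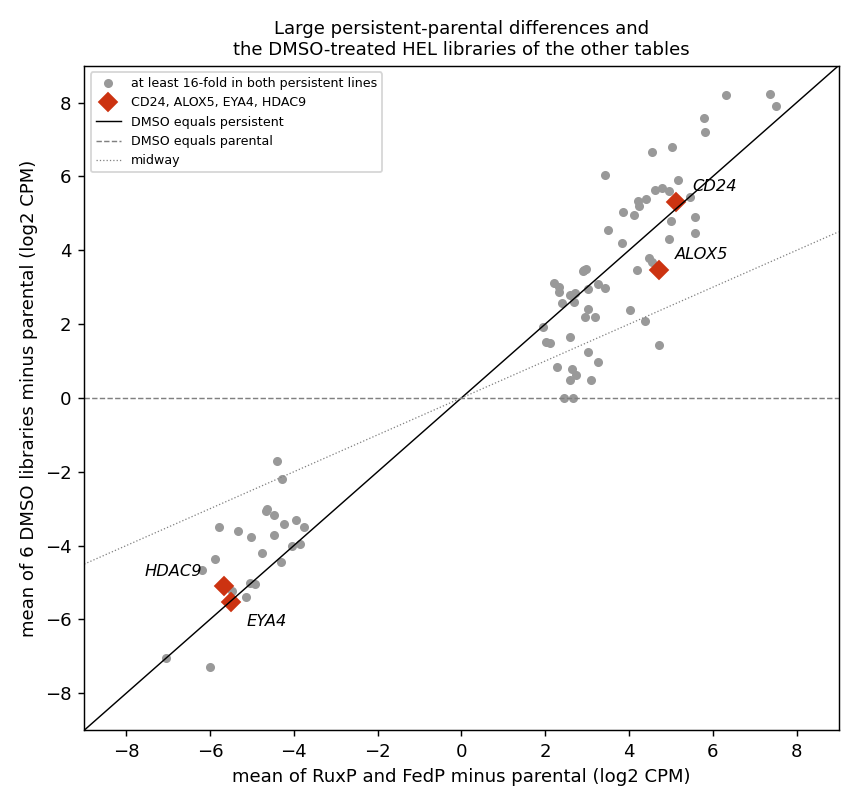
Genes at least 16-fold different from parental in both RuxP and FedP (grey) and the 4 genes (red), by mean persistent minus parental (x axis, log2 CPM) and mean of 6 DMSO libraries minus parental (y axis, log2 CPM), all 20 libraries scaled together. CD24 (5.13, 5.32) and EYA4 (-5.51, -5.54) lie close to the line where DMSO and persistent levels are equal, and all 4 genes lie on the persistent side of the midway line.

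CD24 was all but silent in parental cells and high in RuxP cells. It stood at 0.383 and 0.388 CPM in the parental libraries (22 and 20 counts), 38.8 and 38.3 CPM in RuxP and 5.26 and 5.26 CPM in FedP. The 3 groups did not overlap, with RuxP highest, FedP between and parental lowest. The mean was 100.1-fold higher in RuxP than in parental cells (log2 fold change 6.64, SE 0.204, n = 2) and 13.7-fold higher in FedP (3.77, SE 0.189), and was 7.33-fold lower in FedP than in RuxP. Of 15924 genes tested, 24% had both RuxP libraries above both parental ones and 0.584% were at least 16-fold higher, and CD24 ranked 27th by fold change in RuxP and 109th in FedP. CD24 has processed copies elsewhere in the genome that share nearly all of its coding sequence, and how reads shared with them were counted is not given, so its level is uncertain to that extent.

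ALOX5 was also near the floor in parental cells, but the order of the 2 persistent lines was the reverse of that for CD24. It stood at 0.331 and 0.368 CPM in parental libraries (19 and 19 counts), 5.55 and 6.69 CPM in RuxP and 15.8 and 15.0 CPM in FedP. No 2 of the groups overlapped. The mean was 17.5-fold higher in RuxP (log2 fold change 4.13, SE 0.233) and 44.1-fold higher in FedP (5.46, SE 0.240), and 2.52-fold higher in FedP than in RuxP. In FedP, 33% of genes had both libraries above both parental ones and 0.597% were at least 16-fold higher.

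EYA4 showed the opposite pattern, with parental cells the only group above 1 CPM. It stood at 14.3 and 16.5 CPM in parental libraries (821 and 850 counts), 0.764 and 0.479 CPM in RuxP (38 and 28 counts) and 0.188 and 0.120 CPM in FedP (16 and 10 counts). Both persistent lines lay below parental cells, and both FedP libraries lay below both RuxP libraries. The mean was 24.7-fold lower in RuxP (log2 fold change -4.63, SE 0.330) and 100.1-fold lower in FedP (-6.62, SE 0.371).

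HDAC9 followed EYA4 closely. It stood at 8.93 and 9.86 CPM in parental libraries (513 and 509 counts), 0.241 and 0.205 CPM in RuxP (12 and 12 counts) and 0.0703 and 0.168 CPM in FedP (6 and 14 counts). Parental cells did not overlap either line, and both FedP libraries were below both RuxP libraries on the CPM scale, though not in raw counts. The mean was 42.1-fold lower in RuxP (log2 fold change -5.39, SE 0.421) and 78.9-fold lower in FedP (-6.28, SE 0.437). In these contrasts 23.9% of genes in RuxP and 30% in FedP had both libraries below both parental ones, and 0.452% and 0.559% were at least 16-fold lower. In FedP against RuxP, 40.3% of genes had both FedP libraries above both RuxP ones, as ALOX5 did, and 35.7% below, as the other 3 did. None of the 4 genes was at 0 counts in any of the 20 libraries.

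**Figure D2:**
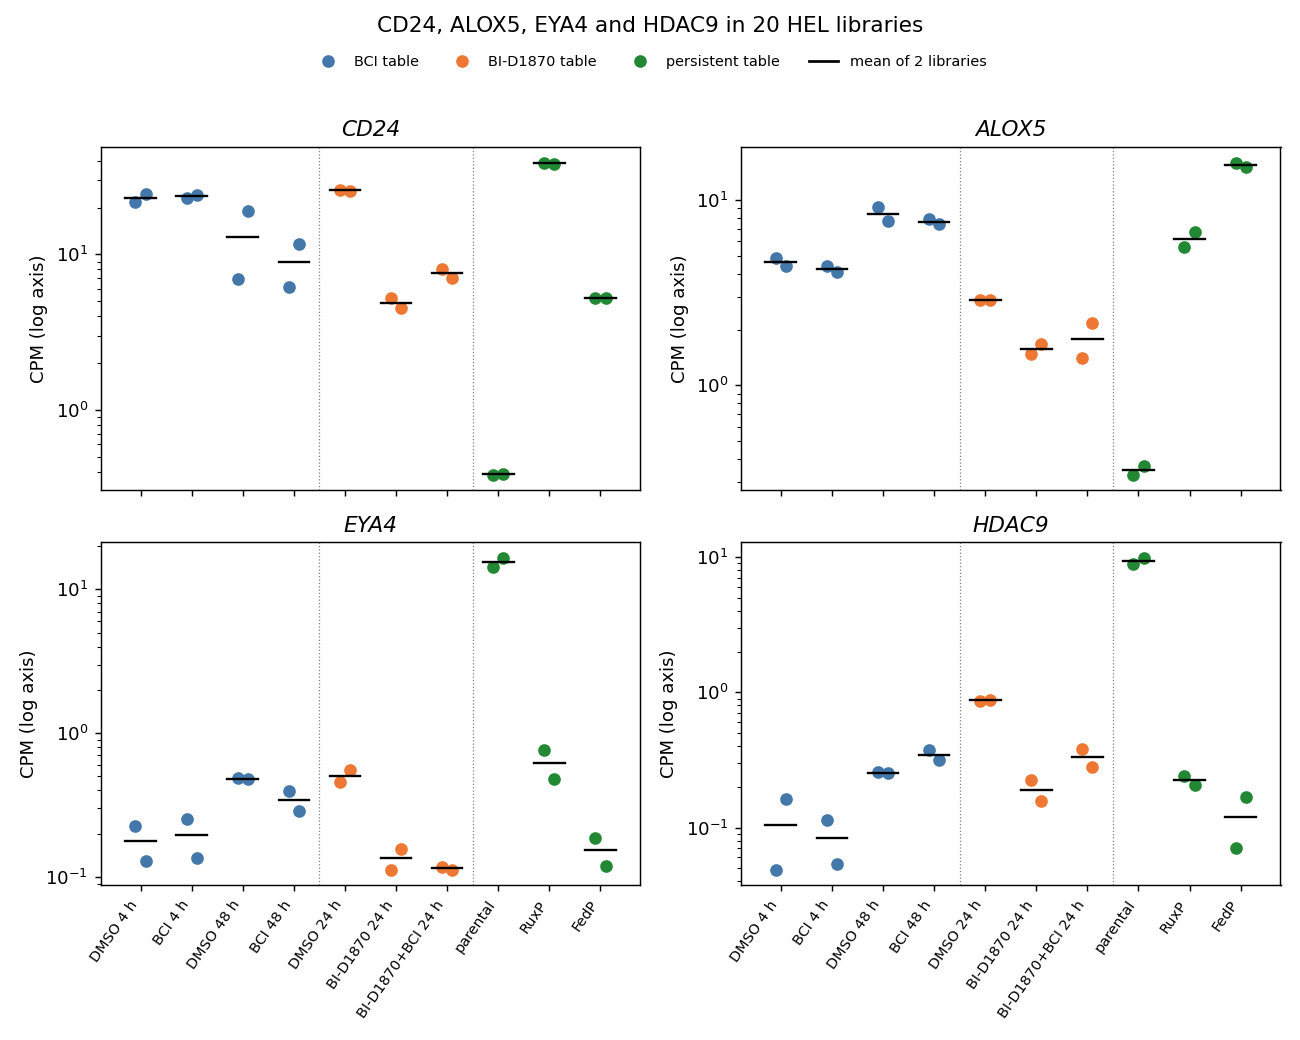
CPM of each gene (log axis) in the 20 libraries, by group. Points are libraries, bars are means of 2, dotted lines separate the 3 tables, which were scaled separately. Parental cells are lowest for CD24 (0.385 CPM) and ALOX5 (0.349 CPM) and highest for EYA4 (15.4 CPM) and HDAC9 (9.39 CPM).

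Levels per kilobase of exon allow a rough comparison between genes. The length is that of all annotated exons, 3097 bases for CD24, 3730 for ALOX5, 8968 for EYA4 and 16827 for HDAC9. It may exceed that of the transcripts present, so the order of the genes is uncertain to that extent. In parental cells the levels were 0.124 RPKM for CD24, 0.0937 for ALOX5, 1.71 for EYA4 and 0.558 for HDAC9. In RuxP cells CD24 led with 12.4 RPKM, ahead of ALOX5 with 1.64, and in FedP cells ALOX5 led with 4.13 ahead of CD24 with 1.70. In DMSO cells at 24 h the levels were 8.35 RPKM for CD24, 0.776 for ALOX5, 0.0565 for EYA4 and 0.0518 for HDAC9. Thus CD24 was the highest of the 4 in RuxP and in DMSO cells at 24 h, and EYA4 the highest in parental cells.

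Across the 10 groups CD24 was highest in RuxP (38.6 CPM), followed by DMSO at 24 h (25.9), BCI at 4 h (23.7), DMSO at 4 h (23.1), DMSO at 48 h (13.0), BCI at 48 h (8.91), BI-D1870 with BCI (7.58), FedP (5.26), BI-D1870 (4.86) and parental (0.385). The 4 h groups overlapped each other, as did the 48 h groups, and the BCI 48 h libraries overlapped those of the drug pair. ALOX5 was highest in FedP (15.4 CPM), followed by DMSO at 48 h (8.39), BCI at 48 h (7.63), RuxP (6.12), DMSO at 4 h (4.63), BCI at 4 h (4.23), DMSO at 24 h (2.89), BI-D1870 with BCI (1.79), BI-D1870 (1.57) and parental (0.349). Neighbours in that order overlapped for both BCI groups against their own DMSO groups and for BI-D1870 against the pair. EYA4 ran from 0.115 CPM with BI-D1870 and BCI to 0.622 CPM in RuxP, and HDAC9 from 0.0837 CPM with BCI at 4 h to 0.872 CPM in DMSO cells at 24 h, leaving out parental. Neighbours in these orders overlapped except BCI at 48 h against the groups on either side of it for EYA4, and, for HDAC9, DMSO at 24 h against BCI at 48 h and DMSO at 48 h against the groups on either side of it.

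Under BI-D1870 CD24, ALOX5 and HDAC9 fell, CD24 the most clearly, and EYA4 was lower but near the floor. All 4 were called against DMSO at 24 h by edgeR's quasi-likelihood test with Benjamini-Hochberg adjustment over 21328 genes. In that comparison 24.3% of all genes fell, 22.8% rose and 47.1% were called in either direction. EYA4 passed the expression filter of this fit only through the DMSO libraries, where it was higher, so its test is read as a description. All 4 also had both treated libraries below both DMSO libraries, as did 36.3% of genes tested. The rule that chose the genes did not use these libraries.

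CD24 stood at 26.0 and 25.7 CPM in DMSO and at 5.20 and 4.51 CPM with BI-D1870, groups far apart. It fell by 2.42 on the log2 scale (SE 0.103, adjusted p = 3.4e-13). ALOX5 stood at 2.89 and 2.90 CPM in DMSO and 1.48 and 1.67 CPM with BI-D1870, again without overlap. It fell by 0.87 (SE 0.229, adjusted p = 0.0036). HDAC9, already low, stood at 0.859 and 0.884 CPM in DMSO (47 and 54 counts) and 0.225 and 0.158 CPM with BI-D1870 (12 and 10 counts), and fell by 2.19 (SE 0.473, adjusted p = 7.0e-04). EYA4 stood at 0.457 and 0.557 CPM in DMSO (25 and 34 counts) and 0.112 and 0.158 CPM with BI-D1870 (6 and 10 counts), and fell by 1.88 (SE 0.618, adjusted p = 0.017). The EYA4 call was lost when any 1 of these 4 libraries was left out, with an adjusted p of up to 0.13, while those of CD24, ALOX5 and HDAC9 were kept.

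With BCI beside BI-D1870 all 4 genes were again called lower than in DMSO. In this comparison 24.3% of genes fell and 36.4% had both libraries below both DMSO libraries. The limit on EYA4 holds here too, since the filter is the same. CD24 stood at 8.06 and 7.10 CPM with the pair and fell by 1.77 (SE 0.0961, adjusted p = 1.1e-11). EYA4 stood at 0.118 and 0.112 CPM (8 and 8 counts) and fell by 2.12 (SE 0.617, adjusted p = 0.0077). HDAC9 stood at 0.382 and 0.281 CPM (26 and 20 counts) and fell by 1.39 (SE 0.434, adjusted p = 0.012). Without DMSO replicate 2 or pair replicate 2 both of these calls were lost, at adjusted p of up to 0.078 for EYA4 and 0.11 for HDAC9. ALOX5 stood at 1.40 and 2.18 CPM, the widest spread of the 4, and fell by 0.69 (SE 0.223, adjusted p = 0.015). Without pair replicate 1 its adjusted p was 0.23.

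Against BI-D1870 alone, the pair left CD24 higher, by 0.65 on the log2 scale (SE 0.108, adjusted p = 0.0011), with 8.06 and 7.10 CPM above 5.20 and 4.51 CPM. It was the only 1 of the 4 called, where 2.22% of genes rose and 4.71% were called, and its adjusted p was 0.061 without BI-D1870 replicate 2. HDAC9 also had both pair libraries above both BI-D1870 libraries, as did 23.8% of genes, but its difference of 0.80 (SE 0.498) had an adjusted p of 0.47. The differences of ALOX5 (0.18, 95% interval -0.31 to 0.67) and EYA4 (-0.24, -1.67 to 1.20) were within the spread of the libraries.

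BCI alone changed none of the 4 genes detectably. At 4 h, where 10.7% of 21908 genes were called, CD24 stood at 21.9 and 24.4 CPM in DMSO and 23.2 and 24.2 CPM in BCI, and ALOX5 at 4.88 and 4.39 CPM in DMSO and 4.39 and 4.07 CPM in BCI. Both pairs of groups overlapped. The log2 differences were 0.03 for CD24 (95% interval -0.85 to 0.92), -0.13 for ALOX5 (-0.46 to 0.20), 0.13 for EYA4 (-1.11 to 1.36) and -0.33 for HDAC9 (-2.01 to 1.35), so for EYA4 and HDAC9, at 3 to 18 counts a library, the interval takes in a 2-fold change either way.

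At 48 h no gene of 21908 was called for BCI by edgeR, with 316 at an unadjusted p under 0.05 and 27 called when no low-count filter was used. CD24 stood at 6.90 and 19.1 CPM in DMSO and 6.17 and 11.6 CPM in BCI, the widest spread between replicates it had in any group. Replicate 1 was the lower in both groups. ALOX5 stood at 9.10 and 7.69 CPM in DMSO and 7.91 and 7.36 CPM in BCI, with overlap. EYA4 had both BCI libraries (0.398 and 0.287 CPM) below both DMSO libraries (0.487 and 0.480 CPM), as did 10.5% of genes, and HDAC9 had both BCI libraries (0.374 and 0.314 CPM) above both DMSO libraries (0.256 and 0.254 CPM), as did 10.8%. Their log2 differences were -0.49 (SE 0.479) and 0.43 (SE 0.601). The change of the BCI response from 4 h to 48 h, called in 3.46% of genes, was called in none of the 4, with values from -0.62 for EYA4 to 0.76 for HDAC9.

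In a comparison added after seeing the data, DMSO libraries labelled 48 h, with columns headed 24 h, were set against those at 4 h. ALOX5 was higher in the later ones, and what besides time differed between them was not tested. It stood at 9.10 and 7.69 CPM at 48 h against 4.88 and 4.39 CPM at 4 h, a rise of 0.86 (SE 0.146, adjusted p = 0.0028) that was kept in each of 11 alternatives, where 13.5% of genes rose. All 4 genes had groups that did not overlap, EYA4 and HDAC9 with the 48 h libraries above (as in 32.7% of genes) and CD24 with them below (as in 30.2%). EYA4 differed by 1.43 (SE 0.519, adjusted p = 0.070) and HDAC9 by 1.26 (SE 0.675, adjusted p = 0.20), from 3 to 38 counts a library. CD24 differed by -0.83 (SE 0.401, adjusted p = 0.16), and without DMSO 48 h replicate 2 by -1.74 (adjusted p = 0.0015).

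**Figure D3:**
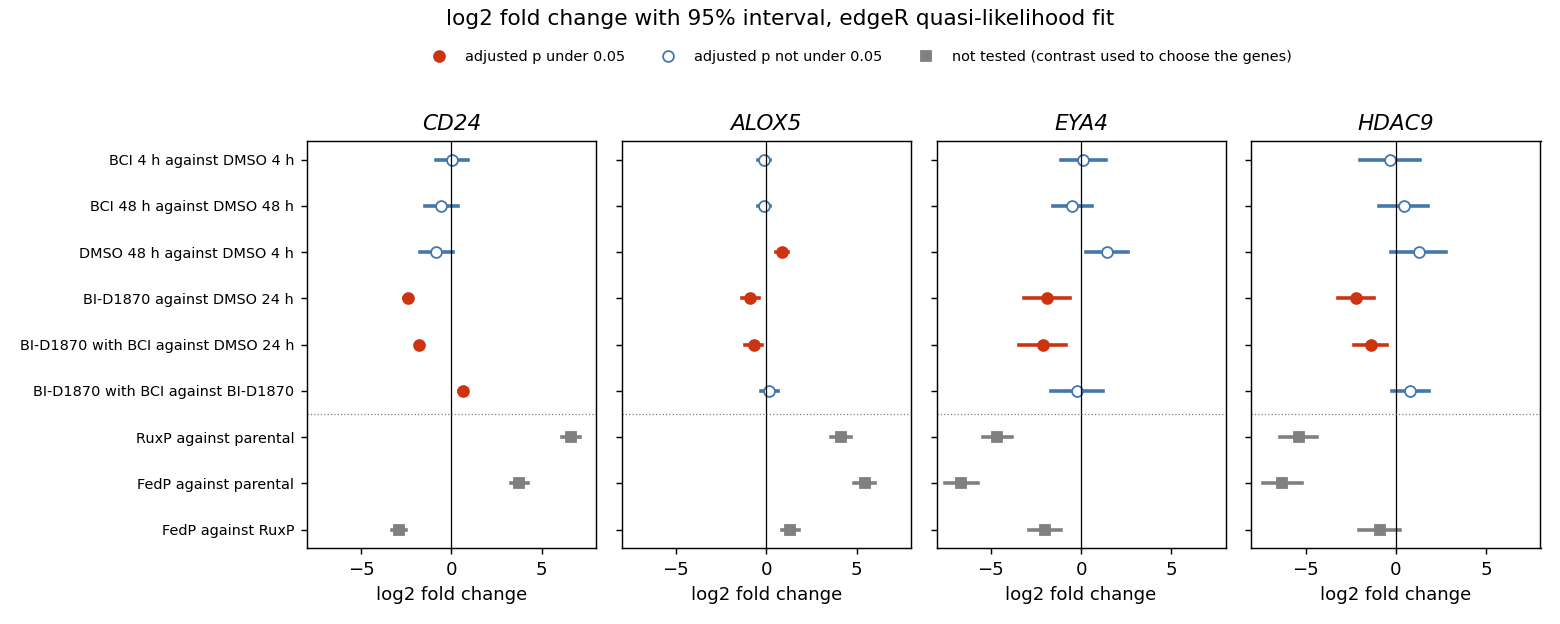
log2 fold change (x axis) of each gene in 9 comparisons (y axis), with 95% intervals from the edgeR fit. Filled red circles passed adjusted p under 0.05, open circles did not, and grey squares are the persistent contrasts, which chose the genes and were not tested. Under BI-D1870 all 4 genes lie below 0, from -0.87 for ALOX5 to -2.42 for CD24.

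The genes around each of the 4 in the pathway lists were read next, and the lists were put together with results of these data known. Of 13 tested partners of CD24 and innate checkpoint genes, 3 rose and 1 fell in RuxP and 3 rose and 2 fell in FedP, where 6.44% and 6.63% of all genes were called. Of all genes, 4.28% rose and 2.17% fell in RuxP, and 3.84% rose and 2.79% fell in FedP. Over all 5 lists together, 17 of 108 genes were called in RuxP and 20 in FedP, and 1 library could move these counts. In RuxP they were 28 and 43 without parental replicate 1 or 2 and 4 and 8 without RuxP replicate 1 or 2. In FedP they were 51 and 23 without parental replicate 1 or 2 and 5 and 4 without FedP replicate 1 or 2. SIGLEC10, the receptor of CD24 on macrophages and other leukocytes, stood at 1.25 and 0.775 CPM in parental, 11.4 and 15.6 CPM in RuxP and 21.5 and 19.8 CPM in FedP. It rose by 3.73 (SE 0.303, adjusted p = 0.0044) and 4.34 (SE 0.309, adjusted p = 0.0035). Both calls held in each of 11 alternatives. Both FedP libraries lay above both RuxP libraries, as for ALOX5 and 40.3% of genes and unlike CD24. That difference of 0.61 (SE 0.261) was not called (edgeR adjusted p = 0.17). CD274 and CD47, ligands of inhibitory receptors, fell by 2.18 and 1.18 in FedP, calls lost without FedP replicate 2 (edgeR adjusted p = 0.054) and without either FedP library (up to 0.21). The list's median log2 fold change was 0.28 in RuxP and 0.09 in FedP, against -0.04 and 0.01 over all genes.

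SELP, P-selectin, another partner of CD24, was abundant throughout and fell in RuxP by 0.92 (adjusted p = 0.039), a call lost without either RuxP library. Under BI-D1870, 8 of the 13 genes of that list fell and 1 rose, where 24.3% of all genes fell, 22.8% rose and 47.1% were called. SELP fell by 2.68 (from 107 and 99.9 CPM to 17.1 and 15.4) and SIGLEC10 by 1.11 (from 6.98 and 8.03 CPM to 3.35 and 3.58), both without overlap. The edgeR adjusted p-values were 9.7e-17 and 1.1e-06. Of 21 tested GPI-anchored surface genes, the class CD24 belongs to, 8 fell and 3 rose under BI-D1870, so that 52.4% were called against 47.1% of all genes, a share near the background. CD52, CD48 and CD109 fell, by 1.89, 1.82 and 1.39, and CD59 rose by 1.13. In the persistent lines 4 of 20 rose in RuxP and 3 in FedP and none fell, where 4.28% and 3.84% of all genes rose and 2.17% and 2.79% fell, and those that rose included CD48 (2.22 and 1.65) and CD52 (1.64 and 2.44). The CD48 and CD52 calls were lost without some 1 library of the persistent line (RuxP replicate 1 for CD48, either RuxP library for CD52, either FedP library for both), at edgeR adjusted p of up to 0.12.

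Of 28 tested arachidonate and leukotriene genes, 4 rose and 2 fell in RuxP and 5 rose and 2 fell in FedP, where 6.44% and 6.63% of all genes were called. ALOX5AP, the partner that presents arachidonate to ALOX5, stood at 0.383 and 0.678 CPM in parental, 2.66 and 1.16 CPM in RuxP and 1.78 and 1.5 CPM in FedP, both lines above parental and overlapping each other, and neither difference from parental passed (adjusted p = 0.12 and 0.14). LTA4H, which makes leukotriene B4, was at 225 to 322 CPM in all 6 libraries and LTC4S, which makes leukotriene C4, at 0.226 CPM or less. PLA2G4A, the phospholipase that frees arachidonate, rose by 0.97 in RuxP and 1.10 in FedP. CYSLTR1, a receptor for the cysteinyl leukotrienes, rose by 3.05 in RuxP and also rose in FedP (edgeR adjusted p = 0.035), and HPGDS, a prostaglandin D2 synthase, rose by 3.48 and 1.66. HPGDS kept its RuxP call in each of 11 alternatives, while the other calls of these 3 genes, HPGDS in FedP included, were lost without either library of the persistent line, at adjusted p of up to 0.24. Other genes of the list fell. EPHX2, the soluble epoxide hydrolase, fell by 1.58 in RuxP and 1.15 in FedP, calls lost without RuxP replicate 1 (edgeR adjusted p = 0.086) and without either FedP library (up to 0.22). PTGS1, a cyclooxygenase, fell by 1.06 in RuxP, a call lost without either RuxP library (edgeR adjusted p up to 0.27). CYSLTR2, the other receptor for cysteinyl leukotrienes, was named after its values were seen and was not recomputed with libraries left out. It fell by 2.87 in FedP (edgeR adjusted p = 0.049), from a mean of 0.490 CPM in parental to 0.0652 CPM. In RuxP its mean of 1.68 CPM was above parental, but the difference of 1.78 was not called (edgeR adjusted p = 0.12). FedP against RuxP differed by -4.65 (edgeR adjusted p = 0.036), a call lost with the replicate block and without any 1 FedP or RuxP library. Under BI-D1870, 17 of 28 genes fell and 4 rose, where 24.3% and 22.8% of all genes did, with a list median of -0.62 against -0.01 over all genes. GGT5, which converts leukotriene C4 to D4, fell by 4.13, CYSLTR1 by 3.41, HPGDS by 2.15, PLA2G4A by 1.26 and ALOX5AP by 1.12, beside 0.87 for ALOX5 itself. The ALOX5AP call was lost without BI-D1870 replicate 1 (edgeR adjusted p = 0.068).

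The next list held genes of the EYA and DACH families, the homeodomain factors they work with, and other genes, among them SKI, SKIL, SOBP and H2AFX. Of its 11 tested genes, 1 fell in RuxP and 1 rose and 1 fell in FedP. That was 9.09% and 18.2% called, against 6.44% and 6.63% of all genes. The gene that rose in FedP was SOBP, by 1.02, and no homeodomain factor of the list was called in either line. EYA3, the only family member above 1 CPM besides EYA4, stood at 50.4 and 53.3 CPM in parental, 52.3 and 66.0 CPM in RuxP and 56.9 and 58.8 CPM in FedP, log2 differences of 0.19 (SE 0.170) and 0.16 (SE 0.169) that were not called. EYA1 and EYA2 were at 0.271 CPM or less in every library. DACH1, a corepressor that works with EYA proteins, fell from 8.16 and 9.59 CPM in parental to 3.40 and 4.38 CPM in RuxP and 3.53 and 4.31 CPM in FedP, by 1.19 and 1.18 (adjusted p = 0.039 in each), calls lost without either library of the persistent line and, in FedP, without parental replicate 2, at adjusted p of up to 0.39.

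Of 36 tested genes of the deacetylase and MEF2 axis, 2 fell in RuxP and 3 in FedP and none rose, or 5.56% and 8.33% called, near the 6.44% and 6.63% of all genes. CAMK2D, a calcium/calmodulin-dependent kinase, stood at 8.02 and 8.35 CPM in parental, 0.201 and 0.103 CPM in RuxP and 0.0469 and 0.0958 CPM in FedP, and at 0.0702 CPM or less in each of the 14 libraries of the other tables. It fell by 5.76 (SE 0.454, adjusted p = 0.0041) and 6.81 (SE 0.476, adjusted p = 0.0034), both kept in each of 11 alternatives. CAMK2D shares with HDAC9 and EYA4 the property of being above 1 CPM in parental cells alone. It needed the parental libraries to pass the expression filter, and the alternatives reuse them, so these calls are not independent of that pattern. MEF2C stood at 561 and 633 CPM in parental, 338 and 320 CPM in RuxP and 259 and 259 CPM in FedP, falling by 0.86 and 1.21, calls lost without either library of the persistent line (adjusted p up to 0.16). HDAC4, HDAC5 and HDAC7, the other class IIa deacetylases, were at 6.98 to 310 CPM in the 6 libraries and none was called. Under BI-D1870, 19 of 35 genes of this list rose and 10 fell, where 22.8% and 24.3% of all genes did, and MEF2C fell by 0.82 (from 460 and 429 CPM to 264 and 241 CPM, adjusted p = 2.0e-11).

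**Figure D4:**
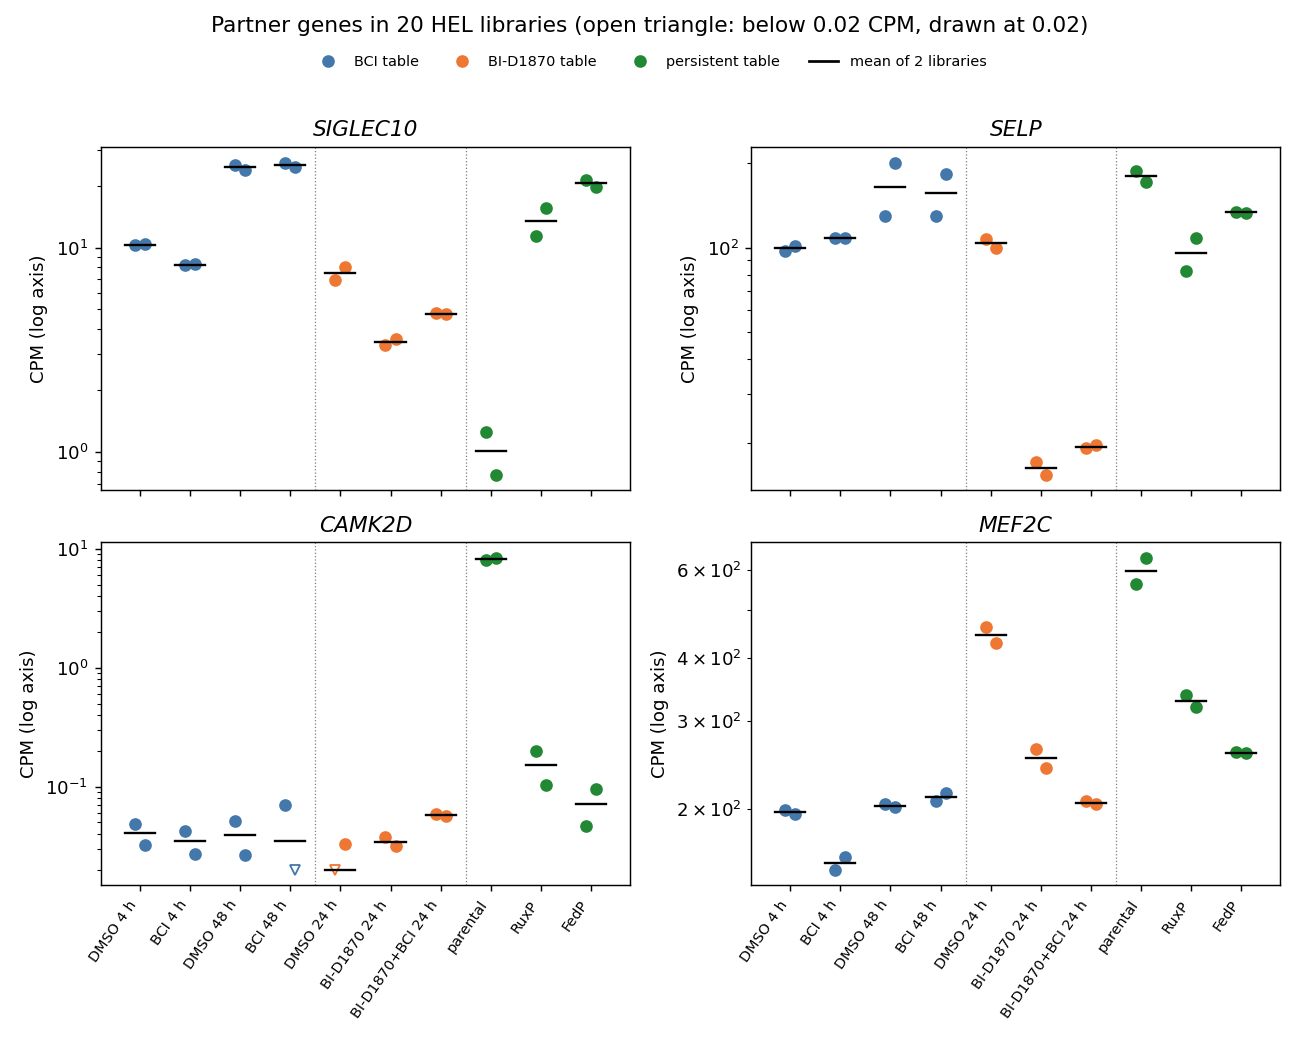
CPM (log axis) of SIGLEC10, SELP, CAMK2D and MEF2C in the 20 libraries, by group. Points are libraries, bars are means of 2, and open triangles are libraries below 0.02 CPM. SIGLEC10 is lowest in parental cells, and CAMK2D is above 1 CPM in the parental libraries alone.

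Markers of other blood and tissue cells were read beside these values. The summed level of 14 granulocyte and monocyte markers was 103.3 to 103.9 CPM in parental, 155.2 to 156.1 CPM in RuxP and 191.0 CPM in both FedP libraries, with 4 to 6 of them at 1 CPM or more, and it moved with ALOX5. Most of that sum came from CD33 (27.4 to 122.6 CPM in the persistent table), LYZ (41.6 to 54.3 CPM), ITGAM (6.96 to 12.2 CPM) and CYBB (3.79 to 13.4 CPM). The granule genes MPO, ELANE, PRTN3 and AZU1 were at most 0.604 CPM, and S100A8 and S100A9 at most 0.925 CPM. The summed level of 10 B lymphoid markers was 92.5 to 135.9 CPM in parental, 81.3 to 100.2 CPM in RuxP and 245.1 to 260.3 CPM in FedP and did not follow CD24. CD37 made up most of it (79.1 to 249.0 CPM), CD79B reached 8.70 CPM and CD79A 2.48 CPM, and MS4A1 and PAX5 were at most 0.322 CPM. The sum of 10 epithelial markers, mostly KRT8 and KRT18, was 19.4 to 20.6 CPM in parental, 30.6 to 38.7 CPM in RuxP and 51.2 to 57.6 CPM in FedP, in the same order as ALOX5. Of these markers 3 to 4 were at 1 CPM or more. ESRP1 stood at 1.10 to 4.91 CPM and EPCAM reached 1.43 CPM, while KRT19, CDH1 and GRHL2 were at most 0.116 CPM. The sum of 7 stromal markers, nearly all VIM, was 608.4 to 1025 CPM in parental, 536.2 to 674.4 CPM in RuxP and 1130 to 1164 CPM in FedP. The sum of the 15 HEL markers was lower in RuxP (2838 to 3227 CPM) than in parental (4561 to 6475 CPM) and FedP (4862 to 4975 CPM). Under BI-D1870 the granulocyte and monocyte sum was 91.6 to 91.7 CPM against 108.6 to 109.9 CPM in DMSO, and the B lymphoid sum 59.4 to 59.6 CPM against 92.2 to 96.4 CPM. The part of these markers in the results was not tested.

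Within 500 kb of each start, 19 genes were tested in the persistent table, and 1 was called in RuxP and none in FedP, counts near the 6.44% and 6.63% of all genes called. In these contrasts DEPP1 near ALOX5 was the only one of the 19 with a log2 difference past 2. The tested genes nearest to CD24, C6orf203 and BEND3 on 1 side and QRSL1 and RTN4IP1 on the other, differed by 0.63, 1.20, 0.54 and 0.54 in RuxP, with adjusted p from 0.059. Near ALOX5, MARCH8 fell by 0.94 in RuxP (edgeR adjusted p = 0.044), the 1 call, which was not recomputed with libraries left out, and DEPP1 differed by -4.62 (adjusted p = 0.088) from a mean parental level of 1.36 CPM and is named here after its values were seen. The 4 tested neighbours of EYA4 and the 2 of HDAC9 differed by -0.49 to 0.49 in RuxP and -1.18 to 0.00 in FedP. The transcripts that overlap EYA4 on the other strand (TARID, AL024497.1, AL024497.2 and HSPE1P21), ALOX5 (AL731567.1) and HDAC9 (AC010082.1, AC004994.1 and NPM1P13) were not listed among the genes counted in the persistent cells. In DMSO and BI-D1870 cells at 24 h their mean levels were at most 0.0346 CPM. The strand setting of the counting is not given, so reads of these transcripts and of the gene they overlap cannot be told apart.

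**Figure D5:**
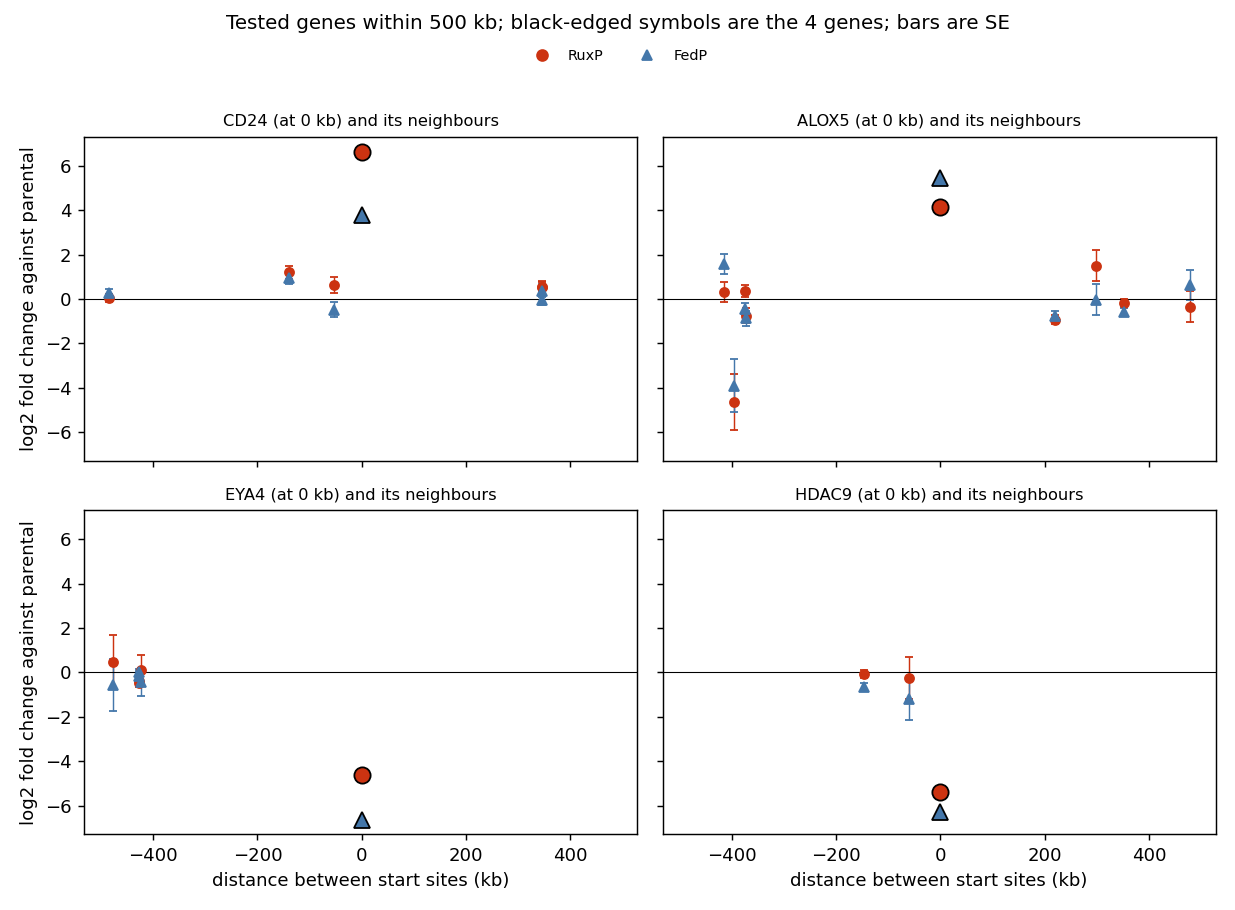
log2 fold change against parental (y axis) of the genes tested within 500 kb of each of the 4, by distance between start sites in kb (x axis), for RuxP (circles) and FedP (triangles), with SE. The 4 genes, at 0 kb with black edges, lie from -6.62 to 6.64, while DEPP1 near ALOX5 lies at -4.62 and -3.90 and the others lie between -1.18 and 1.59.

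The genes most like each of the 4 across the 20 libraries were found by the root mean square distance between log2 CPM profiles, each library taken minus the mean of the control group of its own table (DMSO of the same time, or parental), over 15907 genes. For EYA4 the nearest gene of all was HDAC9 (distance 0.60, Pearson r 0.96 over 20 libraries), followed by CD40LG, PHEX and the platelet chemokines PF4 and PPBP, and for HDAC9 the nearest was EYA4, followed by PPBP, PHEX, PF4 and SMAD1. PF4 stood at 54.1 and 34.5 CPM in parental cells and 1.54 to 1.78 CPM in the persistent lines. For CD24 the nearest were CTSG (distance 0.46, r 0.99), RUNX3, PAQR5, CCDC141 and IL1RL1. CTSG, the neutrophil granule protease cathepsin G, had 0 counts in both parental libraries and 1.17 and 1.83 CPM in RuxP, above 0.410 and 0.575 CPM in FedP. For ALOX5 they were KIRREL2 (distance 0.33, r 0.99), APOL4, SIGLEC10, LITAF and THRB. These likenesses are descriptions over libraries that share tables and controls, and they include the persistent and parental libraries on which the 4 genes were chosen, so the nearness of EYA4 and HDAC9 is not independent of that choice.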

How the data were processed

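RNA of 20 libraries was analysed from gene counts that the authors deposited as raw whole-number counts, unnormalized, in 3 tables. Per the submitters' processing notes bcl2fastq, STAR 2.5.1a, edgeR and GRCh38 were used. Which program, annotation and strand setting made the counts is not given in the sources used here. Of the counts between 1 and 20, 66.8% to 69.4% were even, so 1 fragment may often count as 2. Tables held 34213 to 55093 genes, and columns headed 24 h in the BCI table were read as the 48 h of the labels.

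Each table was fitted separately with edgeR 4.0.16 (R 4.3.3) after its expression filter by group and TMM scaling, using the quasi-likelihood test and Benjamini-Hochberg adjustment over all genes tested (21908, 21328 and 15924), called at adjusted p under 0.05. All groups of a table share 1 estimate of the spread, with 3 or 4 residual degrees of freedom. The scripts were tested on simulated data. DESeq2 1.42.0 with other scaling, filters, samples, a replicate block and left-out libraries were the alternatives. CPM uses the TMM library size, and RPKM the GENCODE 29 exon length. The members and lists were chosen with earlier results of these data known. Named genes were the 4, up to 6 called genes per list and comparison with the largest fold change at a mean of 1 CPM or more, the nearest tested neighbours within 500 kb, overlapping genes, and the 5 genes of most similar profile. The promoter motifs were chosen after the sequences were seen, and the comparison of the DMSO groups across time and the joint scaling of all libraries after the data were seen. Other partners, family members and DEPP1 were named after their values were seen.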

Additional observations from a re-analysis of the deposited data

How the results depend on the processing

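Of the values of single genes recomputed outside leave-one-out fits, 1236 kept their direction and side of the threshold, 62 lost the call, 2 gained it, 2 changed sign and 13 untested persistent-cell values of CD24 and ALOX5 moved by more than the replicate spread. With 1 library left out, 612 kept it, 217 lost the call, 1 gained it, 15 changed sign and 15 untested values moved. A group left with 1 library is assumed to vary like the others. The cause of these changes was not tested. EYA4 and HDAC9 had 3 to 54 counts in each of the 14 libraries of the drug tables, where their intervals were wide.
The change in the ALOX5 response to BCI from 4 h to 48 h was 0.0048 with DESeq2 size factors and 0.0049 with DESeq2. Under the stricter low-count filter 2 of the 4 genes were called for BI-D1870 and 2 for the drug pair, since EYA4 and HDAC9 were not tested.
Without a low-count filter, called genes numbered 27 for BCI at 48 h, 1658 (8 in the lists) for its change over time, 1836 (29) for RuxP, 1818 for FedP and 2886 (23) for FedP against RuxP, and 2 of the 4 genes were called for DMSO at 48 h against 4 h. DESeq2 called 1269 (8), 2460 (37), 2491 and 3422 (26) for the change over time, RuxP, FedP and FedP against RuxP. With only the groups compared in the fit, 5691 (34) were called for BCI at 4 h, 419 (7) for RuxP, 568 (11) for FedP and 5783 (42) for FedP against RuxP.
The replicate numbers pair no samples by the labels, and same-numbered deviations correlated at -0.222 to 0.316. With the replicate block, 1166 genes were called for the BCI change over time, 324 (7 in the lists) for RuxP, 272 (6) for FedP and 0 (0) for FedP against RuxP, where edgeR without the block called 222. CD24 was called for DMSO at 48 h against 4 h (-0.96, adjusted p = 0.025), making 2 of the 4.
Leaving out 1 library at a time, the log2 differences for BCI at 4 h ran from -0.044 to 0.11 for CD24, -0.39 to 0.58 for EYA4 and -0.94 to 0.76 for HDAC9. At 48 h they ran from -1.09 to 0.36 for CD24 and -0.25 to 0.0016 for ALOX5, and for the change over time from -1.13 to 0.33 for CD24, -0.12 to 0.13 for ALOX5 and -0.33 to 1.37 for HDAC9. For the pair against BI-D1870 they ran from -0.45 to 0.028 for EYA4 and -0.18 to 0.46 for ALOX5. Of the 4 genes, 1 to 2 were called for DMSO at 48 h against 4 h, 2 to 4 for the pair against DMSO and 0 to 1 for the pair against BI-D1870. Called genes, with those in the lists in brackets, ran from 555 to 693 (3 to 4) for BCI at 4 h, 88 to 1705 (1 to 14) for its change over time, 2498 to 6017 (25 to 50) for DMSO at 48 h against 4 h, 325 to 565 (7 to 8) for the pair against BI-D1870, 170 to 4157 (4 to 43) for RuxP, 197 to 5293 (4 to 51) for FedP and 0 to 0 (0 to 0) for FedP against RuxP.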
